A study of Mus musculus with 6 samples.

Results

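The nuclear genes for proteins of the mitochondrial ribosome were followed in mouse liver RNA. They were taken as the protein-coding rows of the deposited expression table whose mouse symbol begins with Mrps or Mrpl and a digit, after the Ensembl identifiers had been matched to GENCODE M21. The rule found 78 genes among 58601 rows, 29 with small-subunit names (Mrps) and 49 with large-subunit names (Mrpl). All 78 had a mean of at least 1 TPM (transcript abundance per length, scaled to 1000000 in each library) over the libraries and were tested. They lie on 17 chromosomes, with 11 on chromosome 11, 8 on chromosome 17, 7 on chromosome 6 and 6 on chromosome 7.

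The libraries came from liver of Mdr2 knockout mice given vehicle, 3 libraries, or lycorine, 3 libraries, and lycorine is an alkaloid of Amaryllidaceae plants. Mdr2 is the older name of Abcb4, the hepatocyte transporter that puts phosphatidylcholine into bile. Both groups carry the knockout, were 8 weeks old and were treated for 2 weeks, and no wild-type group was analysed here. The growth protocol calls the strain Mdr2-HKO, an abbreviation it does not spell out. The labels used here leave out sex, dose and how many animals each library holds. The spread behind each p-value is thus that of the deposited libraries, and part of it may be technical.

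The mitochondrial ribosome makes the few respiratory chain proteins that mitochondrial DNA encodes. Its small subunit reads the messenger RNA, and its large subunit joins the amino acids. Its ribosomal RNAs come from mitochondrial DNA, whereas all of its proteins are encoded in the nucleus, made in the cytosol and imported. Hepatocytes are rich in mitochondria, and genes of this set are expressed in nearly every cell type.

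In whole liver, fewer cells of a type and less RNA per cell cannot be told apart. Abcb4 itself was read at 43.5, 10.8 and 12.3 TPM with vehicle and 8.96, 8.32 and 32.2 TPM with lycorine, and a gene-level value does not show which part of a transcript is left. The hepatocyte product Alb was at 5039 to 18246 TPM with vehicle and 11824 to 19785 TPM with lycorine. Vehicle library 3 stood apart. Its share of TPM in protein-coding nuclear genes was 51.5%, against 63.7% to 78.1% in the other libraries, and its Alb was the lowest. Across the 78 genes, Spearman's rho of vehicle library 3 with the other libraries was 0.817 to 0.912, and rho was 0.929 to 0.984 for the other 10 pairs. Each rho runs over 78 genes that share a library, and it is a description only.

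Stretches upstream of 6 start sites are shown because the data bear on genes that share a promoter region and because the motifs are those of factors known to act on nuclear genes for mitochondria. They are RefSeq sequence on GRCm38.p6, and each runs to the last base before the start site, 5′ to 3′ on the gene's own strand. Capitals mark the NRF1 motif (GCGCA, any base, then GCGC, on either strand) or the ETS motif (CCGGAAGT, on either strand). Mrpl32 (chr13:14613038-14613241, minus strand) was the first choice by rule, having a small p and a motif, and it lies beside the oppositely directed gene Psma2. Mrps11 (chr7:78783090-78783130, plus strand) is the whole stretch between the RefSeq starts of the 2 divergent members Mrpl46 and Mrps11. Mrps21 (chr3:95871515-95871614, minus strand) and Mrpl12 (chr11:120484537-120484636, plus strand) hold the NRF1 motif. Mrps22 (chr9:98601680-98601779, minus strand) and Mrpl3 (chr9:105053168-105053267, plus strand) hold the ETS motif. All but Mrpl32 were chosen after their values had been seen.
Mrpl32: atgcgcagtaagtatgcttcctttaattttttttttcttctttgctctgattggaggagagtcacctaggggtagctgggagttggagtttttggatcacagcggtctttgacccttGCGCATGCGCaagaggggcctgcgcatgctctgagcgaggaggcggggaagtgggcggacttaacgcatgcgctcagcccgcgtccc
Mrps11: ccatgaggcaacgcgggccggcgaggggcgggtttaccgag
Mrps21: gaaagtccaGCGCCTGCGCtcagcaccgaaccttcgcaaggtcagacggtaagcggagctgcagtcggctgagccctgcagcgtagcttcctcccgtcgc
Mrpl12: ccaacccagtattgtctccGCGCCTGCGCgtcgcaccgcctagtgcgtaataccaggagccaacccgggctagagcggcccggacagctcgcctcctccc
Mrps22: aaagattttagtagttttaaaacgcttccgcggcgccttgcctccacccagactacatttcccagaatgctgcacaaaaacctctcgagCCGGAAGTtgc
Mrpl3: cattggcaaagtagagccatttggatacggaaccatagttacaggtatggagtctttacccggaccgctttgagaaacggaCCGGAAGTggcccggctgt

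RefSeq windows from 250 bases before to 50 after the start were matched for 69 of the 78 genes. Some genes have several windows, and a gene was counted if any of its windows held the motif. The NRF1 motif was found in 13 of the 69 genes (18.8%) and in 5.19% of all 27025 genes in that set. That set is larger than the 21928 protein-coding rows measured here, whereas the members are all expressed protein-coding genes. A background of expressed protein-coding genes alone was not counted, so whether an excess is particular to the members is not known. The ETS motif was found in 12 genes (17.4%) against 4.31% of all. AAGATGGC, the core of the YY1 motif, was found in 12 genes (17.4%) against 3.19%, and GGGCGGG, the motif of SP1, in 29 (42.0%) against 27.9%. These last 2 motifs were picked with the data already seen, and both strands were searched for every motif. Of the 26 small-subunit genes, 3 held the NRF1 motif and 6 the YY1 motif. Of the 43 large-subunit genes the counts were 10 and 6. The median log2 fold changes of lycorine over vehicle in members with and without a motif were 0.47 and 0.42 for NRF1, 0.37 and 0.47 for ETS, 0.38 and 0.45 for YY1 and 0.47 and 0.42 for SP1, and the differences were not tested. A match in a window is a description of its letters and does not show that a factor binds there.

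The next question was the level of the members, which TPM allows to be compared between genes because it is scaled by transcript length. Summed over the 78 genes, the level was 3692, 2944 and 2492 TPM in vehicle libraries 1, 2 and 3 and 3985, 4025 and 3801 TPM with lycorine libraries 1, 2 and 3. Every lycorine sum lay above every vehicle sum. As a share of the TPM in protein-coding nuclear genes, the same sums were 0.516%, 0.462% and 0.484% in vehicle and 0.511%, 0.534% and 0.547% in lycorine. On that denominator vehicle library 1 lay above lycorine library 1, so the groups overlapped. The lowest of the 6 values fell in vehicle library 3 for 49 of the 78 genes and in vehicle library 2 for 24. The highest fell in lycorine library 1 for 40 genes, in lycorine library 2 for 16 and in lycorine library 3 for 10.

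**Figure D1:**
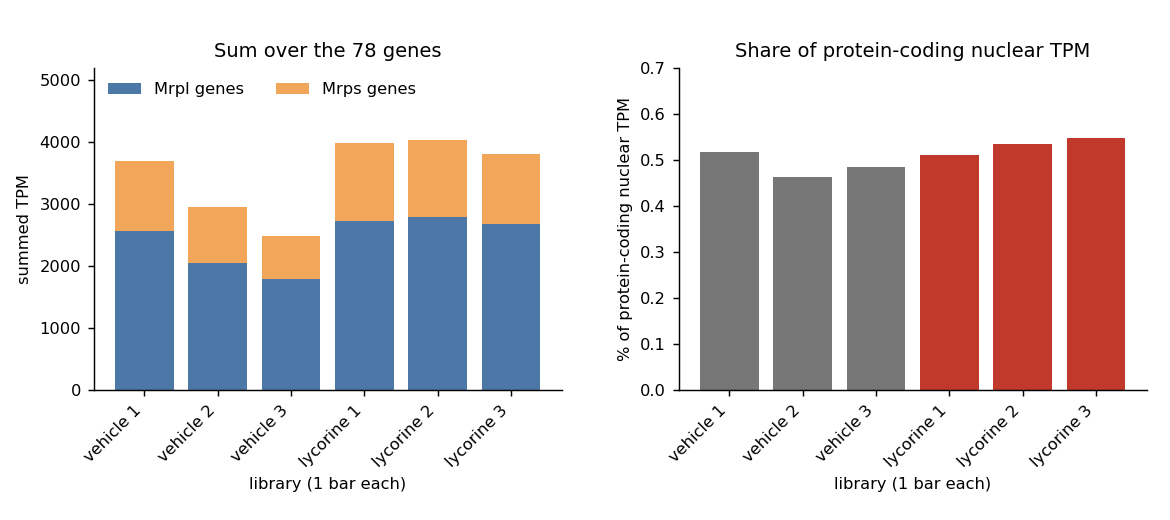
Summed level of the mitochondrial ribosomal protein genes in each of the 6 libraries, in TPM of all rows and as a percent of the TPM in protein-coding nuclear genes. The 3 lycorine sums, 3801 to 4025 TPM, lie above the 3 vehicle sums, 2492 to 3692 TPM, whereas the percents, 0.462 to 0.516 in vehicle and 0.511 to 0.547 in lycorine, overlap.

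The median level over the 6 libraries was 27.0 TPM for the members, 25.6 TPM for the Mrps genes and 32.3 TPM for the Mrpl genes, beside 5.14 TPM for all tested rows. Among small-subunit genes Mrps21, the counterpart of a bacterial small-subunit protein, was the most abundant. It was read at 319, 262 and 135 TPM with vehicle and 281, 318 and 301 TPM with lycorine. The groups overlapped, vehicle library 3 was the lowest, and the log2 fold change was 0.42 with all libraries and 0.05 without that one. Among large-subunit genes Mrpl52, a protein that mitochondrial ribosomes have and bacterial ones lack, was at 295, 252 and 185 TPM with vehicle and 283, 290 and 247 TPM with lycorine. Mrpl14, which lies at the face toward the small subunit, was at 200, 195 and 132 TPM with vehicle and 200.3, 224 and 252 TPM with lycorine, so its groups only just failed to meet. At the low end, Mrpl19 was read at 2.26, 0.90 and 1.25 TPM with vehicle and 3.05, 1.98 and 2.47 TPM with lycorine. Mrps22, the gene with the ETS motif printed above, was at 5.90, 4.67 and 4.40 TPM with vehicle and 8.28, 6.29 and 4.70 TPM with lycorine. Levels thus differed widely from gene to gene within 1 ribosome.

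No member passed the comparison of lycorine with vehicle. The test was limma on log2(TPM + 1), with p values adjusted by Benjamini-Hochberg across the 13854 tested rows, and 0 rows (0.0%) had an adjusted p under 0.05. The members' adjusted p values ran from 0.832 to 0.986. On this scale a fold change of a weakly expressed gene is understated. At an unadjusted p under 0.05, 2 members were higher in lycorine, Mrpl35 and Mrps7, where 2.79% of all rows were higher and 0.65% lower, and 0 members were lower. The log2 fold change was above 0 in 77 of the 78 members, and Mrpl1 was the exception. The share was 69.9% of all tested rows and 81.8% of protein-coding rows averaging 5 TPM or more. The members' median was 0.42, with an interquartile range of 0.30 to 0.55 and a full range of -0.63 to 1.10. The median was 0.22 over all tested rows and 0.32 over the 6217 protein-coding rows averaging 5 TPM or more, which are closer to the members in level. Of the 78 members, 66 (84.6%) lay above the all-row median, as did 63.4% of those 6217 rows.

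In 20 members (25.6%) the lowest lycorine value was over the highest vehicle value. The same was true of 9.6% of all tested rows and of 14.8% of protein-coding rows averaging 5 TPM or more. The reverse order was found in 0 members and in 1.01% of rows. With the libraries rescaled by the median of ratios, 2 members (2.56%), Mrps6 and Mrps14, were separate in this direction, against 3.2% of rows, so the members' share was then near the background. With protein-coding nuclear genes alone, rescaled to a common sum, the count was 9 members (11.5%) against 4.82% of rows. Without vehicle library 3 it was 26 members (33.3%) against 15.3%, without lycorine library 3 it was 47 (60.3%) against 18.9%, and without both it was 51 (65.4%) against 25.5%. Mrps28 had the reverse order without vehicle library 3, with or without lycorine library 3. Fewer libraries make separation easier, which is why each share is set beside its own background.

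**Figure D2:**
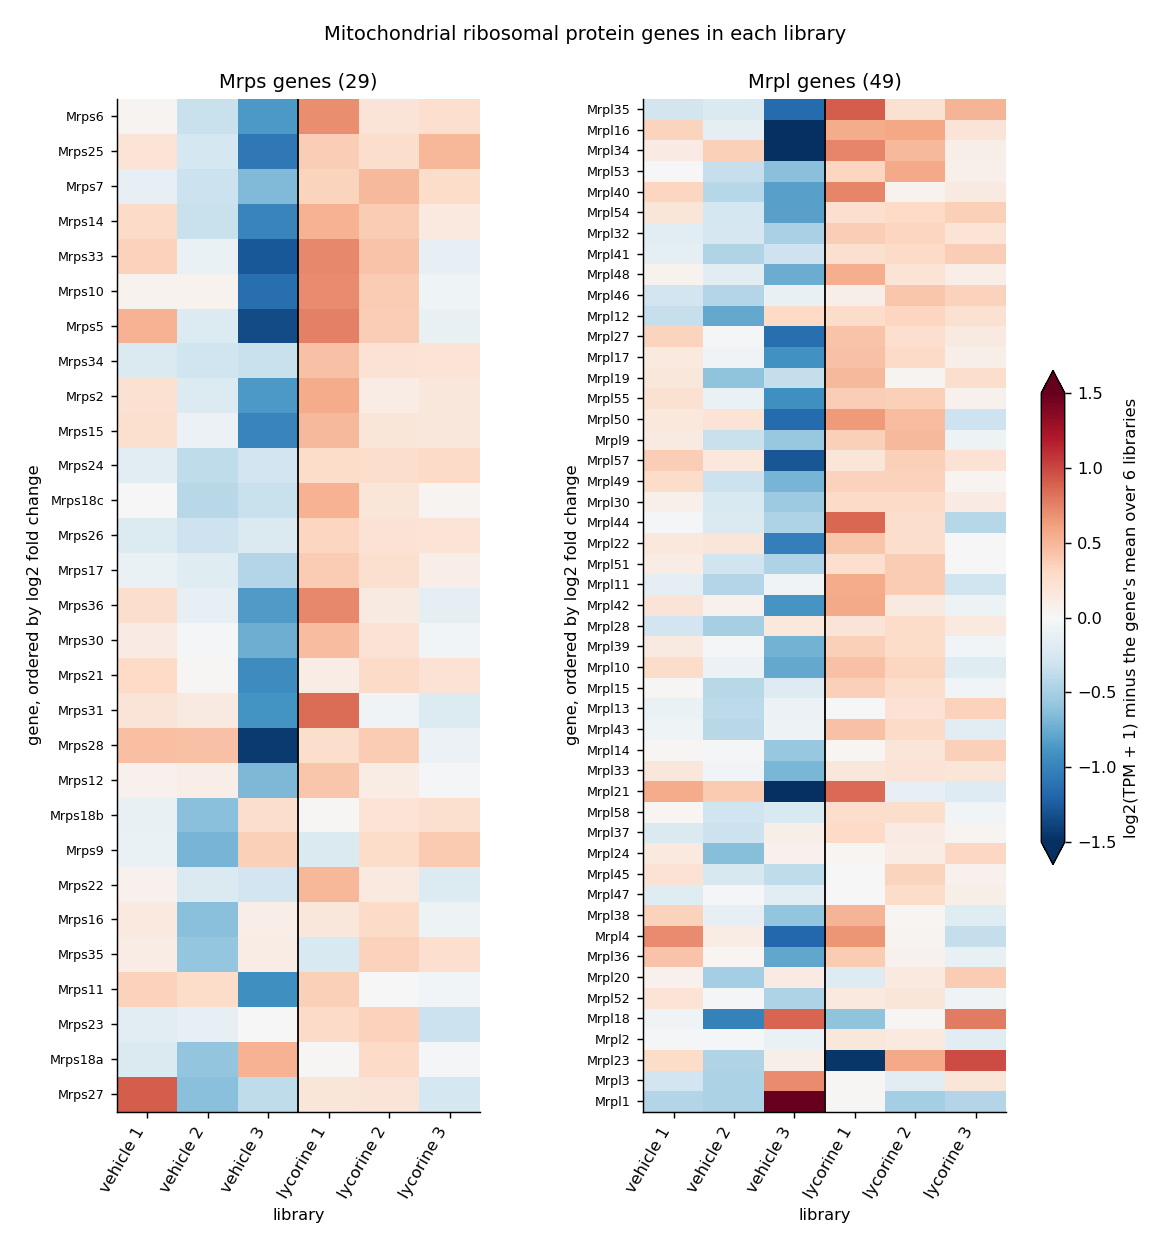
Level of each of the 78 genes in the 6 libraries, as the deviation of log2(TPM + 1) from the gene's mean over the libraries, with Mrps and Mrpl genes in separate panels and colors ending at -1.5 and 1.5. The column of vehicle library 3 holds the lowest value of 49 genes, and 15 genes stand above vehicle libraries 1 and 2 there.

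**Figure D3:**
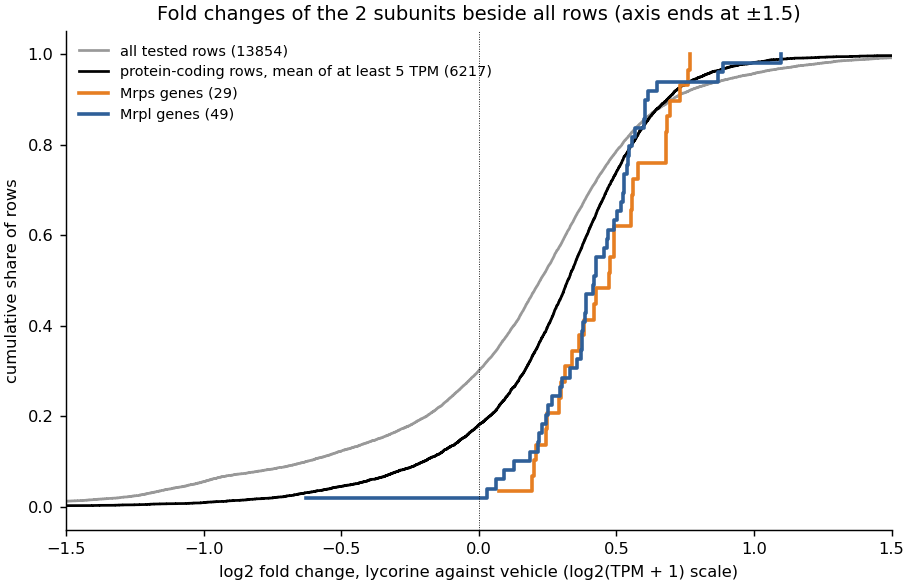
Cumulative share of genes by log2 fold change of lycorine over vehicle on log2(TPM + 1), for Mrps genes, Mrpl genes, all tested rows and protein-coding rows averaging 5 TPM or more. Both subunits' curves lie to the right of the curve of all tested rows, with medians of 0.47 and 0.42 against 0.22. The median of the protein-coding rows averaging 5 TPM or more is 0.32.

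All 29 Mrps genes had a log2 fold change above 0, between 0.07 and 0.77 with a median of 0.47, and 25 of them lay above the all-row median. Mrps7, a protein of the small subunit's head on chromosome 11 (115603925 to 115608036 on GRCm38), was read at 57.7, 50.3 and 39.5 TPM with vehicle and 79.5, 88.5 and 76.6 TPM with lycorine. The groups did not overlap, and the log2 fold change was 0.73 ± 0.28 (SE, n = 3 per group, limma adjusted p = 0.832). Mrps34, a protein specific to mitochondrial ribosomes on chromosome 17 (24895116 to 24897502), was at 57.5, 54.2 and 53.0 TPM with vehicle and 91.6, 78.3 and 77.7 TPM with lycorine. Its vehicle libraries were close together, at 54.9 ± 2.31 TPM (SD, n = 3), with a log2 fold change of 0.58 ± 0.26 (SE, limma adjusted p = 0.832). Mrps24, on chromosome 11 (5703983 to 5715680), showed little spread within either group. It was at 39.7, 34.1 and 36.4 TPM with vehicle and 54.4, 53.6 and 54.7 TPM with lycorine. Mrps6, on chromosome 16 (92058270 to 92112227), was at 12.1, 9.12 and 6.03 TPM with vehicle and 19.7, 13.6 and 14.2 TPM with lycorine. Mrps25 was at 23.6, 16.8 and 9.17 TPM with vehicle and 26.7, 24.7 and 29.3 TPM with lycorine. In Mrps6 and Mrps25 vehicle library 3 was the lowest of all, and the log2 fold changes of 0.77 and 0.76 were 0.53 and 0.41 without it.

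Other small-subunit genes, among them ones with bacterial counterparts, had groups that overlapped. Mrps12, the counterpart of the bacterial protein at the decoding site, was at 23.6, 24.3 and 13.8 TPM with vehicle and 30.5, 24.4 and 22.2 TPM with lycorine. Its groups overlapped, and its log2 fold change was 0.34 with all libraries and 0.09 without vehicle library 3. Mrps5, also a protein of the bacterial core, was at 39.2, 23.3 and 10.1 TPM with vehicle and 46.3, 35.2 and 24.9 TPM with lycorine. Mrps5 had the widest spread among Mrps genes, 4.61 times from the lowest to the highest library. Mrps15, which binds the small ribosomal RNA, was at 52.5, 41.6 and 21.7 TPM with vehicle and 62.2, 50.1 and 49.7 TPM with lycorine.

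Some Mrps genes are not small-subunit proteins in the way their names say. Mrps18a and Mrps30 are placed in the large subunit in structures of the mammalian mitochondrial ribosome, and Mrps36 is a component of the oxoglutarate dehydrogenase complex. Mrps18a was at 23.3, 17.7 and 39.3 TPM with vehicle and 27.5, 33.3 and 26.9 TPM with lycorine, with the highest value in vehicle library 3. Its paralog Mrps18b was also highest there, at 37.5, 26.0 and 48.7 TPM with vehicle and 41.0, 47.0 and 48.3 TPM with lycorine. Mrps18c, which takes the place of the bacterial protein in the small subunit, was not, at 25.02, 18.5 and 19.6 TPM with vehicle and 36.2, 28.4 and 25.7 TPM with lycorine. Of these 3 paralogs only Mrps18c had groups that did not overlap, and a difference between the paralogs was not tested. Mrps30 was at 5.35, 4.73 and 2.5 TPM with vehicle and 7.03, 5.76 and 4.67 TPM with lycorine. Mrps36 was at 28.4, 21.5 and 12.5 TPM with vehicle and 39.3, 25.8 and 21.1 TPM with lycorine.

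Among the 49 Mrpl genes, 48 had a log2 fold change above 0 and 41 lay above the all-row median, with a median of 0.42. Mrpl35, on chromosome 6 (71812997 to 71826969), had the largest log2 fold change of all members. It was read at 6.84, 7.17 and 3.24 TPM with vehicle and 16.8, 10.1 and 12.5 TPM with lycorine. The groups did not overlap, and the log2 fold change was 1.10 ± 0.36 (SE, n = 3 per group, limma adjusted p = 0.832). Mrpl32, a protein that is trimmed by a mitochondrial protease before it joins the large subunit, was at 11.2, 10.4 and 8.77 TPM with vehicle and 16.7, 16.1 and 14.8 TPM with lycorine. Mrpl32 lies on chromosome 13 (14608184 to 14613165), with a log2 fold change of 0.60 ± 0.26 (SE, limma adjusted p = 0.832). The other leading genes had the same order of groups. Mrpl41, on chromosome 2 (24974117 to 24975098), was at 18.7, 14.8 and 16.3 TPM with vehicle and 24.4, 25.4 and 26.9 TPM with lycorine. Mrpl53, on chromosome 6 (83109040 to 83109939), was at 33.1, 25.9 and 21.03 TPM with vehicle and 41.4, 49.6 and 35.0 TPM with lycorine. Mrpl54 was at 176, 129 and 87.5 TPM with vehicle and 185, 191 and 199 TPM with lycorine. These 5 genes were higher in each lycorine library than in each vehicle library.

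The stalk of the large subunit recruits translation factors. Mrpl12, the stalk protein, was at 48.4, 35.7 and 76.0 TPM with vehicle and 74.9, 77.2 and 72.3 TPM with lycorine. Vehicle library 3 reached the lycorine level, and the log2 fold change was 0.55 with all libraries and 0.83 without that one. Mrpl11, at the base of the stalk, was at 18.8, 15.1 and 20.1 TPM with vehicle and 31.2, 27.4 and 16.8 TPM with lycorine, where lycorine library 3 lay inside the vehicle range. Mrpl58, a peptidyl-tRNA hydrolase that is built into the large subunit, was at 65.01, 51.8 and 54.1 TPM with vehicle and 77.0, 76.8 and 62.1 TPM with lycorine. Mrpl44, which has the fold of a double-strand ribonuclease, was at 4.51, 3.80 and 3.05 TPM with vehicle and 9.17, 5.70 and 3.15 TPM with lycorine. The groups of Mrpl58 and Mrpl44 each overlapped through lycorine library 3.

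The widest-spread large-subunit genes Mrpl1, Mrpl34 and Mrpl16 had their extreme value in vehicle library 3. Mrpl1, on chromosome 5 (96209493 to 96266727), was at 2.38, 2.30 and 15.5 TPM with vehicle and 3.62, 2.21 and 2.36 TPM with lycorine. The log2 fold change stood at -0.63 ± 0.63 (SE, limma adjusted p = 0.833) with all libraries and 0.14 without vehicle library 3. Mrpl34 was at 29.9, 35.3 and 7.32 TPM with vehicle and 46.3, 38.7 and 29.2 TPM with lycorine. Mrpl16, which borders the catalytic center, was at 9.71, 6.68 and 1.98 TPM with vehicle and 11.5, 11.7 and 8.75 TPM with lycorine. Vehicle library 3 was the lowest for Mrpl34 and Mrpl16 and the highest for Mrpl1. Mrpl3, the other gene with a printed ETS motif, was at 3.72, 3.14 and 8.36 TPM with vehicle and 4.81, 4.16 and 5.50 TPM with lycorine, with a log2 fold change of 0.03 ± 0.37 (SE, limma adjusted p = 0.986). In all, vehicle library 3 lay below both other vehicle libraries for 50 of the 78 members (64.1%) and above both for 15 (19.2%), where the shares of all tested rows were 38.2% and 33.3%. The 15 were Mrpl1, Mrpl3, Mrpl11, Mrpl12, Mrpl13, Mrpl18, Mrpl20, Mrpl28, Mrpl37, Mrpl46, Mrps9, Mrps18a, Mrps18b, Mrps23 and Mrps35. Without vehicle library 3 the members' median log2 fold change was 0.30, beside 0.19 for all rows, and 51 members lay above the latter. The median of protein-coding rows averaging 5 TPM or more was then 0.23.

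The value of Mrpl23 is uncertain. The gene, on chromosome 7 (142532686 to 142540747), was read at 92.3, 55.2 and 80.6 TPM with vehicle and 27.0, 113 and 151 TPM with lycorine, and its highest library was 5.60 times its lowest. Its processed pseudogene Mrpl23-ps1 was read at 153, 110 and 52.1 TPM with vehicle and 176, 125 and 126 TPM with lycorine. The sum of both rows was 246, 166 and 133 TPM with vehicle and 203, 238 and 277 TPM with lycorine, a ratio of 2.09 between the highest and lowest library. How reads shared by such copies were divided is not given in the sources used here. This pair was chosen after its values had been seen.

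Small and large subunit were compared by their medians. The difference of the medians of fold changes, small minus large, was 0.05 on the log2 scale. It was 0.12 without lycorine library 2 and -0.02 without vehicle library 3. Per library, the mean deviation of the Mrps genes minus that of the Mrpl genes came to 0.04, -0.003 and -0.10 with vehicle and 0.09, 0.01 and -0.03 with lycorine, so the groups overlapped. The mean of these values was -0.022 ± 0.072 with vehicle and 0.022 ± 0.059 with lycorine (SD, n = 3 each), a difference of 0.045. The Mrps genes made up 30.6%, 30.2% and 27.9% of the members' summed TPM with vehicle and 31.6%, 30.7% and 29.6% in lycorine, also overlapping. With Mrps18a and Mrps30 counted as large-subunit genes and Mrps36 left out, the medians were 0.48 for 26 small-subunit and 0.42 for 51 large-subunit genes. With all libraries, the difference between treatments in the mean small-minus-large deviation was thus smaller than the SD within either group. A p is not given for it because the members were chosen with earlier results known.

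**Figure D4:**
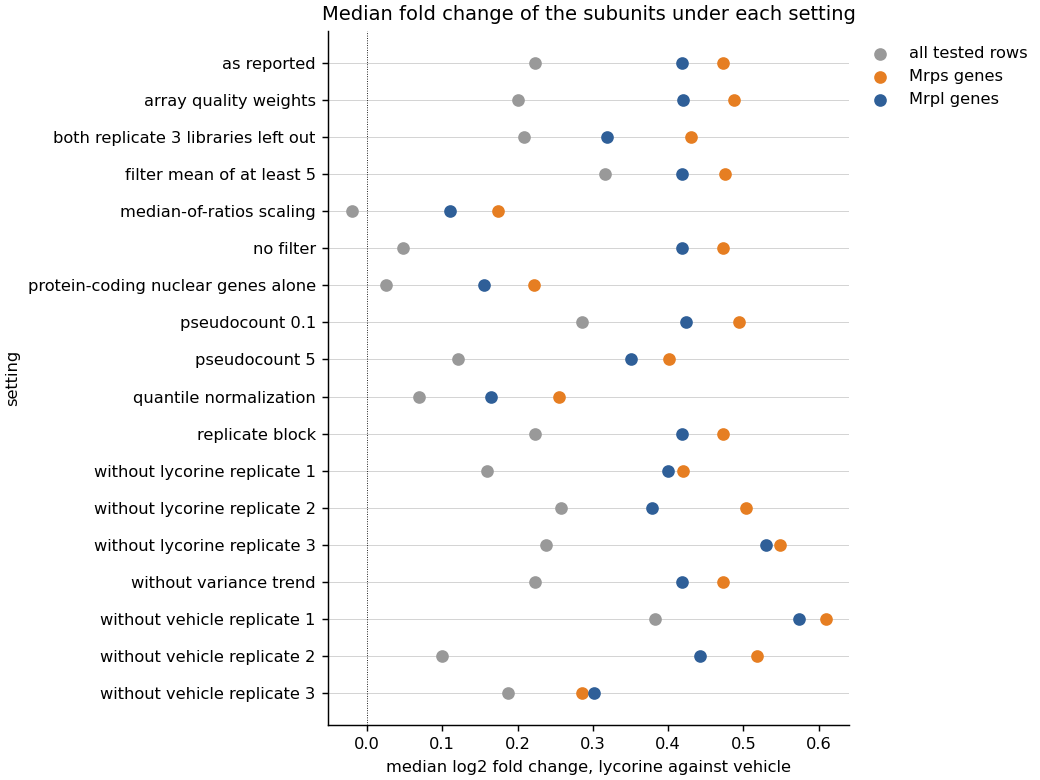
Median log2 fold change of lycorine over vehicle (horizontal axis) for the Mrps genes, the Mrpl genes and all tested rows under each processing setting (vertical axis). The Mrps median runs from 0.17 and the Mrpl median from 0.11, both with median-of-ratios scaling, to 0.61 and 0.57 without vehicle replicate 1, and both lie above the all-row median in each setting shown.

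The size of the members' fold changes depended on how libraries were scaled. With median-of-ratios scaling 58 of 78 members had a log2 fold change above 0, their median was 0.13 and that of all rows was -0.02, and 60 members lay above the latter. With protein-coding nuclear genes alone the counts were 62 and 60, with medians of 0.18 and 0.03, and with quantile normalization 65 and 57, with medians of 0.21 and 0.07. The direction flipped under these scalings for Mrpl52, Mrps18a and Mrpl3, among others. Relative to all rows the members' median was higher by 0.20 as deposited, 0.15 after median-of-ratios scaling and 0.14 after quantile normalization. Protein-coding rows averaging 5 TPM or more, nearer in level, lay closer to the members. Their medians were 0.32, 0.04 and 0.11 in these settings, beside 0.42, 0.13 and 0.21 for the members. Mrps7 was at 0.42, Mrps6 at 0.48 and Mrpl35 at 0.82 on the log2 scale with median-of-ratios scaling.

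Some of these genes share a start region with another gene on the opposite strand, and how common this is among all genes was not counted. By GENCODE, 33 members have the start of an oppositely directed protein-coding gene within 1000 bases, and 23 of these partners are tested genes outside the set. Of the 23, 20 had a log2 fold change above 0 and 16 lay above the all-row median. Above 0 were 69.9% of all tested rows and 81.8% of protein-coding rows averaging 5 TPM or more. Of the latter rows 63.4% lay above the all-row median, with a median of 0.32. The partners' median was 0.40 and 0 passed, and they were not counted under other scalings. Mrpl46, on chromosome 7 (78775236 to 78783531), and Mrps11 form a pair on opposite strands within the set. Their GENCODE starts are 412 bases apart, and each start lies inside the other gene. The genes thus overlap by that annotation, and reads of the overlap may be mixed. Mrpl46 was at 9.35, 8.32 and 10.7 TPM with vehicle and 12.4, 15.8 and 15.0 TPM with lycorine, without overlap. Mrps11 was at 30.9, 29.4 and 12.3 TPM with vehicle and 31.4, 24.0 and 23.5 TPM with lycorine, with overlap. The log2 fold change of Mrpl46 was 0.56. That of Mrps11 was 0.21 with all libraries, -0.20 without vehicle library 3 and -0.091 with median-of-ratios scaling. The short stretch between their RefSeq starts printed above held neither the NRF1 nor the ETS motif.

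Psma2, a proteasome subunit gene whose GENCODE start lies 75 bases from that of Mrpl32, was at 36.2, 29.3 and 10.2 TPM with vehicle and 39.9, 33.0 and 20.9 TPM with lycorine, with overlap where Mrpl32 had none. Sars2, the mitochondrial seryl-tRNA synthetase, has its start 172 bases from that of Mrps12. It was at 5.37, 3.03 and 6.09 TPM with vehicle and 8.02, 6.20 and 13.8 TPM with lycorine. Ptcd2, 81 bases from Mrps27, was at 6.36, 5.36 and 5.02 TPM with vehicle and 8.27, 8.00 and 8.32 TPM with lycorine. The log2 fold changes were 0.49 for Ptcd2 and 0.073 for Mrps27, and the difference was not tested. Mrps27 turned to -0.10 without vehicle library 3, -0.21 with median-of-ratios scaling, -0.13 with quantile normalization and -0.18 with protein-coding nuclear genes alone. A protein-coding gene on the opposite strand overlaps 23 members. Whether reads were counted by strand is not given in the sources used here, so reads of such overlaps could not be told apart.

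Proteins of the mitochondrial ribosome with other names shared a sign. All 5 had a log2 fold change above 0, with a median of 0.50, and 0 passed. Above 0 were also 69.9% of all tested rows and 81.8% of protein-coding rows averaging 5 TPM or more. Dap3, a small-subunit protein known as a death-associated GTP-binding protein, was at 55.4, 33.2 and 93.1 TPM with vehicle and 57.1, 72.4 and 97.5 TPM with lycorine. Ptcd3, a small-subunit protein with pentatricopeptide repeats, was at 6.11, 3.70 and 5.06 TPM with vehicle and 7.84, 6.82 and 10.4 TPM with lycorine, without overlap. Gadd45gip1, a large-subunit protein, was at 22.2, 19.2 and 13.4 TPM with vehicle and 22.96, 28.8 and 25.6 TPM with lycorine, also without overlap. Chchd1 was at 16.1, 19.2 and 27.7 TPM with vehicle and 33.1, 29.5 and 25.9 TPM with lycorine. Aurkaip1 was at 75.5, 62.7 and 19.7 TPM with vehicle and 84.6, 82.4 and 72.1 TPM with lycorine. The groups of Dap3, Chchd1 and Aurkaip1 overlapped. Separate groups, higher in lycorine, were found in 9.6% of all tested rows and 14.8% of protein-coding rows averaging 5 TPM or more.

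Other steps of mitochondrial gene expression were read from lists of genes. Over all tested rows 69.9% had a log2 fold change above 0, with a median of 0.22. Of 13 mitochondrial translation factors, 12 had a log2 fold change above 0 and the median was 0.39. Tufm, the elongation factor that brings tRNA to the ribosome, was at 23.5, 19.8 and 34.3 TPM with vehicle and 46.9, 37.3 and 31.3 TPM with lycorine. Tsfm, which recharges it, was at 8.86, 9.0 and 3.97 TPM with vehicle and 10.8, 13.3 and 11.3 TPM with lycorine, and the initiation factor Mtif3 was at 11.7, 8.34 and 9.14 TPM with vehicle and 13.6, 13.95 and 17.0 TPM with lycorine. Of 28 genes listed for assembly of the ribosome 26 were above 0, with a median of 0.24. That list also holds Lrpprc and Slirp, which act on mitochondrial messenger RNA and were at 0.38 and 0.63. The GTPase Mtg1 was at 4.56, 3.11 and 4.60 TPM with vehicle and 10.6, 10.3 and 5.89 TPM with lycorine and had an unadjusted limma p under 0.05 (adjusted p = 0.832). Mrm3, a methyltransferase of the large ribosomal RNA, and the assembly factor Malsu1 had overlapping groups, with log2 fold changes of 0.41 and 0.44.

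Of 21 tested mitochondrial tRNA synthetase and charging genes, 18 were above 0 and the median of 0.24, close to that of all rows, turned to -0.04 with median-of-ratios scaling. Yars2 and Gatb, in that list with Sars2, had log2 fold changes of 0.55 and 0.49. Of 10 tested genes for mitochondrial DNA and its transcription 9 were above 0, with a median of 0.30, and Tefm, Twnk and Top1mt were at 0.58, 0.42 and 0.35. Of 8 tested regulators of mitochondrial biogenesis 6 were above 0, with a median of 0.35. Esrra, a nuclear receptor that acts on respiratory genes, was at 24.3, 14.01 and 13.9 TPM with vehicle and 23.4, 23.7 and 26.6 TPM with lycorine. Nrf1, whose motif was searched above, was at 2.89, 1.23 and 9.02 TPM with vehicle and 2.17, 1.37 and 0.77 TPM with lycorine. Gabpb1, a subunit of an ETS factor, had a log2 fold change of 0.42. None of these genes passed the adjusted limma test. With median-of-ratios scaling the genes above 0 were 5 of 5 ribosomal proteins with other names, 10 of 13 translation factors, 15 of 28 assembly genes, 10 of 21 tRNA genes, 5 of 10 genes for mitochondrial DNA and 5 of 8 regulators, where 6617 of all 13854 rows were above 0.

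**Figure D5:**
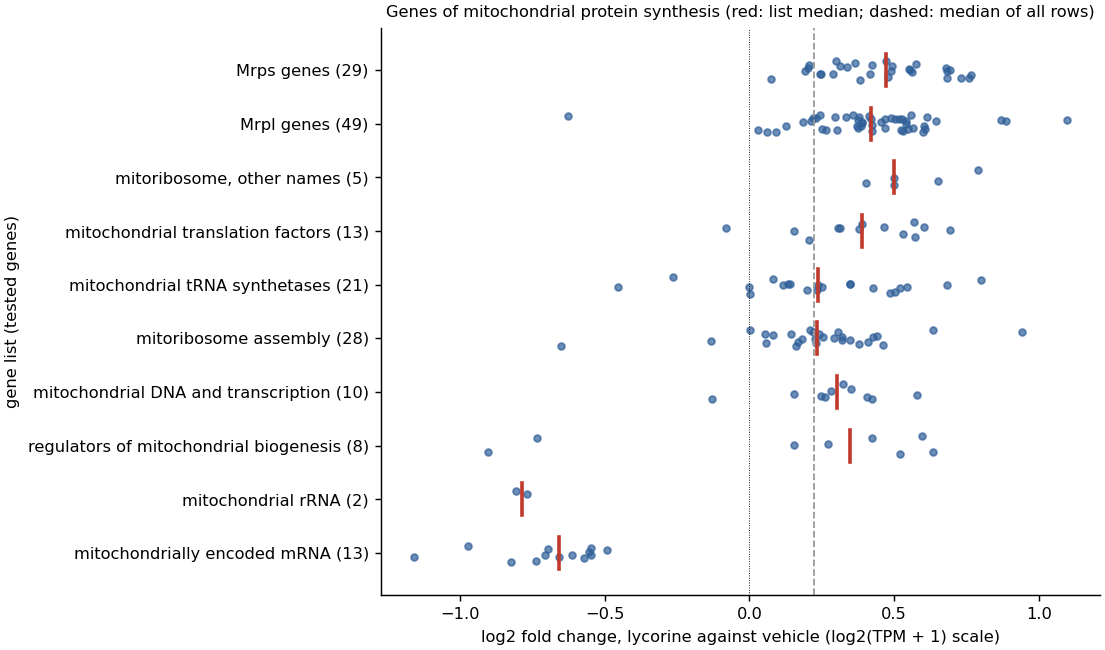
Log2 fold change of lycorine over vehicle for each tested gene of the mitochondrial ribosome and of the lists of mitochondrial gene expression, with the median of each list. The nuclear lists have medians from 0.24 to 0.50, and the mitochondrially encoded rRNAs and mRNAs have medians of -0.79 and -0.66.

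The RNAs that mitochondrial DNA encodes had the opposite sign to the nuclear ribosomal protein genes. The ribosomal RNA mt-Rnr1 was at 1233, 1681 and 5202 TPM with vehicle and 691, 1450 and 2171 TPM with lycorine. The ribosomal RNA mt-Rnr2 was at 704, 870 and 2878 TPM with vehicle and 346, 825 and 1155 TPM with lycorine. For both the groups overlapped, and vehicle library 3 was the highest. The median of the pair was -0.79 with all libraries, -0.17 without that one, -1.10 after median-of-ratios scaling and -0.92 after quantile normalization. All 13 mitochondrially encoded messenger RNAs had a log2 fold change below 0, with a median of -0.66 that was -0.51 without vehicle library 3, -0.97 after median-of-ratios scaling and -0.40 after quantile normalization. In 5 of them the highest lycorine value was under the lowest vehicle value, against 1.01% of all rows, and 6 had an unadjusted limma p under 0.05, against 0.65% of rows lower at that p, with 0 past the adjusted threshold. The respiratory complex I gene mt-Nd2 was at 9149, 14261 and 12173 TPM with vehicle and 5979, 6450 and 7421 TPM with lycorine, with a log2 fold change of -0.82. The groups of mt-Nd4 and mt-Cytb did not overlap either, at log2 fold changes of -0.71 and -0.66. Since TPM sums to 1000000 in each library, a library with a larger share of mitochondrial RNA has a smaller share left for nuclear genes.

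Markers of liver cell types were read in the same libraries. The summed hepatocyte markers ranged from 15739 to 44411 TPM with vehicle and from 30687 to 46956 TPM with lycorine, and 7 of the 8 had a log2 fold change above 0, against 69.9% of all rows, with 3 above the all-row median. Above 0 were 3 of 8 with median-of-ratios scaling and 3 of 8 with protein-coding nuclear genes alone. With quantile normalization 5 of 8 were above 0, and without vehicle library 3 it was 4 of 8. Above the all-row median of these settings, in the same order, were 3, 3, 4 and 1 of the 8. All 9 tested Kupffer cell markers had a log2 fold change below 0, 5 of them at an unadjusted limma p under 0.05, where 0.65% of all rows were lower at that p, with sums of 228 to 539 TPM with vehicle and 153 to 389 TPM with lycorine. All 6 tested markers of sinusoidal endothelium were below 0, or 4 of 6 without vehicle library 3, with sums of 44.3 to 185 TPM and 56.5 to 84.8 TPM. Sums for T and NK cells were 18.2 to 47.0 TPM and 11.4 to 26.0 TPM, with 5 of 6 below 0, and those for B and plasma cells were 4.92 to 10.8 TPM and 3.51 to 14.9 TPM, with 0 of 2 below 0. Sums for bile duct were 48.0 to 223 TPM and 55.2 to 222 TPM, with 5 of 6 above 0, and those for stellate cells were 94.9 to 192 TPM and 50.1 to 233 TPM, with 4 of 7 above 0. Neutrophil markers summed to 6.98 to 27.9 TPM and 1.76 to 4.19 TPM, with 3 of 3 below 0 and Ly6g listed at 0 in all 6 libraries. Red blood cell markers summed to 523 to 767 TPM and 430 to 687 TPM, with 3 of 5 below 0. After median-of-ratios scaling the markers above 0 were 0 of 2 for B and plasma cells, 4 of 6 for bile duct, 2 of 7 for stellate cells and 1 of 5 for red blood cells. The part of cell composition in the members' values was not tested.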

How the data were processed

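Liver RNA of 6 libraries was measured by RNA sequencing, 3 vehicle and 3 lycorine. Per the labels' protocols, frozen tissue was extracted with an RNeasy kit and libraries were made with a NEBNext Ultra RNA kit. The authors deposited 1 table of values per gene and library. The name of the table says FPKM, yet every deposited column adds up to 1000000 within the rounding of its 2 decimals, so the values were treated as TPM. Builds GRCm38 and mm10 are named in the submitters' processing notes. Which aligner, quantifier and annotation were used is not given in the sources used here. Depth is unknown because TPM does not carry it, and counting intervals were left out. Columns of vehicle libraries hold just genotype and number and were taken as vehicle by elimination, since lycorine columns have the added letters Ly.

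GENCODE M21 (GRCm38) gave gene symbols, classes and coordinates. Of the 58601 rows, 3185 carry no Ensembl identifier. The 13854 rows averaging 1 TPM or more were transformed to log2(TPM + 1) and fitted with limma 3.58.1 (R 4.3.3, trend option, two-sided). The p values were adjusted by Benjamini-Hochberg across the tested rows, and 0.05 was the threshold. The procedure was also run on simulated data with independent noise, with log2 fold changes set larger than those of nearly all members. That run does not show how often changes of the members' size would be called. Median-of-ratios scaling divided each library by the median ratio of its rows to their geometric means. No 2 libraries held identical values.

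The members and lists were chosen with earlier results of these data known. Named genes were, in each subunit, the 5 members with the smallest p, the 3 highest and 3 lowest in level, the 3 with the widest spread and 13 members fixed for their role, and in the lists of mitochondrial gene expression the 3 genes with the smallest p, or all genes of the 2 lists of other ribosomal proteins and ribosomal RNAs. Some are given by their counts only. Mrpl23, the partners and genes named in counts are outside this rule and were chosen after their values were seen. Of the list genes, Ict1 and Tf did not match a symbol, Ict1 being an older name of Mrpl58. As alternatives, the subunit assignment, pseudocount, filter, scaling, trend, library weights and replicate block were varied and libraries were left out. The counts of members with separate groups under other settings were an addition made with the data already seen.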

Additional observations from a re-analysis of the deposited data

How the results depend on the processing

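No member passed the adjusted limma threshold under any of the settings run, and the members' median log2 fold change stayed above 0 and above the median of all rows in each of them. It was 0.13 with median-of-ratios scaling and 0.18 with protein-coding nuclear genes alone, against 0.42 as deposited, and 0.30 to 0.59 when 1 library was left out. The small-subunit median was 0.17 with median-of-ratios scaling. The large-subunit median was 0.11 with that scaling, 0.16 with protein-coding nuclear genes alone and 0.16 with quantile normalization. Small minus large ran from -0.016 to 0.12 when 1 library was left out, the ends being without vehicle library 3 and without lycorine library 2. As deposited, 20 members had separate groups, higher in lycorine (25.6%, against 9.6% of all rows). The count was 2 with median-of-ratios scaling (2.56% against 3.2%) and 9 with protein-coding nuclear genes alone (11.5% against 4.82%). It was 26 without vehicle library 3 (33.3% against 15.3%) and 47 without lycorine library 3 (60.3% against 18.9%). Without both it was 51 (65.4% against 25.5%), and fewer libraries make separation easier. In these rescalings the values themselves were divided differently between libraries, and any other cause was not tested.

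Signs turned in 4 members named by rule, and also in Mrps11 (-0.091 with median-of-ratios scaling, -0.046 with protein-coding nuclear genes alone, -0.20 without vehicle library 3) and Mrps27 (-0.21 and -0.18 under the same scalings, -0.13 with quantile normalization, -0.10 without vehicle library 3). Mrpl52 was at -0.13 with median-of-ratios scaling, -0.082 with protein-coding nuclear genes alone and -0.065 with quantile normalization, and from -0.00086 (without vehicle library 3) to 0.33 with 1 library left out. Mrps18a was at -0.11, -0.067 and -0.11 under the same scalings, and from -0.055 (without vehicle library 2) to 0.50 with 1 left out. Mrpl3 was at -0.23, -0.20 and -0.11 under them, -0.0024 with a pseudocount of 5, and from -0.20 (without vehicle library 2) to 0.39 with 1 left out, being below 0 also without vehicle library 1 and without lycorine library 3. Mrpl1 was at 0.21 without both replicate 3 libraries, and from -1.02 to 0.14 (without vehicle library 3) with 1 left out. The cause was not tested.

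Replicate numbers are shared between groups, and whether they mark pairs is not known here. The deviations of same-numbered libraries from their group means correlated at 0.31, 0.05 and 0.29. Each lycorine library correlated best with the vehicle library of its own number. Vehicle library 2, however, correlated best with lycorine library 1 (0.21). The main fit took the libraries as unpaired. With the replicate block the members' median was 0.42, 0 members passed, and 12 members had an unadjusted p under 0.05 against 2 without it. Over all rows that count was 1033 against 476. Depth is unknown, so how far it limits genes such as Mrpl19 could not be stated.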
